A study of Rattus norvegicus with 36 samples.

Results

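The comparison described here sets the soleus of rats that had been trained on a treadmill after spinal cord injury (SCI) against the soleus of uninjured rats. It holds 12 of the 36 arrays of the series, 6 labelled as controls (CTR) and 6 labelled as taken 14 days after SCI with treadmill training (SCI14d + TM), and arrays were put in their groups by these labels. All rats were female Sprague Dawley rats of 16 weeks. Injured rats had a moderate contusion of the spinal cord, made by a weight of 10 g that fell 25 mm onto the T8 segment, which leaves part of the cord intact. Training began on day 7 and consisted of 2 sessions of 20 min a day for 5 days, with the body weight supported by hand where needed. The left soleus was taken 8 h after the last session, so lasting differences and the response to that session cannot be told apart. Another group, injured rats at 14 days without training (SCI14d, 6 arrays), is given beside the comparison where it shows what the trained rats had in common with untrained ones. CTR rats had neither injury nor training, so effects of surgery, individual housing and the supplementary diet given to the experimental animals cannot be told apart from those of the injury.

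The soleus is a postural calf muscle built mainly of slow, oxidative fibers that work against gravity for much of the day. When it is unloaded or loses its neural drive, its fibers shrink, the supply of mitochondrial and fat-burning enzymes declines, and fast forms of the contractile proteins are made in place of slow ones. Loading the muscle again brings these programs back towards their former level and also sets off repair, in which satellite cells divide, immature fiber proteins reappear and fibroblasts remodel the collagen matrix around the fibers. The slow muscle identity of the tissue was checked on its defining genes. Myh7, the slow myosin heavy chain, had signals between 50746 and 62787 on the 6 SCI14d + TM arrays and between 54687 and 87506 on the CTR arrays, and Myl3, a slow myosin light chain, lay between 38410 and 51507 in SCI14d + TM. Both were far above the median signal of an array, which ran from 191.1 to 199.0 in CTR and from 192.4 to 215.6 in SCI14d + TM.

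Few differences from CTR passed the test in trained rats. Signals are linear intensities on a scale common to all arrays, tests were made on their log2 values with limma, and a probe set (the short probes that read 1 transcript) is called here when its p-value adjusted over all probe sets was under 0.05. Of 31042 probe sets, 111 were called (0.358%), 80 of them higher (0.258%) and 31 lower (0.0999%) in SCI14d + TM. At an unadjusted p under 0.05 there were 3747. The 111 include 84 probe sets with 1 gene symbol, which stand for 80 genes. With 1 probe set standing for each of 14217 genes, 56 genes were called higher (0.394%) and 15 lower (0.106%). The same fit called 264 genes higher (1.86%) and 368 lower (2.59%) in untrained SCI14d rats against the same CTR arrays. The counts were 202 and 220 without the arrays of high Gapdh ratio named further on. The test of the difference between the injured groups, SCI14d + TM minus SCI14d, called 1 of 31042 probe sets (0.00322%), and 1849 had an unadjusted p under 0.05. Apart from that probe set, a gene called in one injured group and not in the other was not shown to differ between them.

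The split of the calls depended on how the arrays were scaled. As deposited, 72.1% of the calls were higher, and the share was 50.0% after the median of each array was set equal and 90.6% when each array was scaled to Gapdh. Over all probe sets the median log2 fold change was 0.04 as deposited and 0.22 with the Gapdh scaling. On 454 probe sets (1.46%) the 6 SCI14d + TM arrays and the 6 CTR arrays did not overlap, and 53 of the 111 called probe sets were among them. Most calls were also lost in some fit that left out a single array. Of 85 called probe sets that were followed through the alternatives, not all of them described here, 5 were called in every one that tested them. Fits that left out single arrays were counted apart. Leaving out each array in turn gave between 20 and 242 calls, and 18 probe sets were called in all 12 of these fits.

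Single arrays stood apart in a measure of RNA quality. The ratio of the 3′ to the 5′ control probe sets of Gapdh, which rises when RNA is degraded or incompletely copied, was 1.61 on CTR replicate 3 and 1.33 on SCI14d + TM replicate 1, and the next highest values in these groups were 1.16 and 1.11. In untrained SCI14d rats it was 1.35 on replicate 4. CTR replicate 3 had the highest collagen signal of its group, and SCI14d + TM replicate 1 had the lowest of its own. Without the arrays whose ratio was above 1.25, 480 probe sets were called, 339 higher and 141 lower, and 106 of the 111 were among them. The limit of 1.25 was chosen here, and the paper states that it applied quality control criteria to its arrays. Leaving these arrays out is therefore a check and not a correction. Results are given with all arrays, and with these arrays left out wherever a count moved by over 1.5 times.

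**Figure D1:**
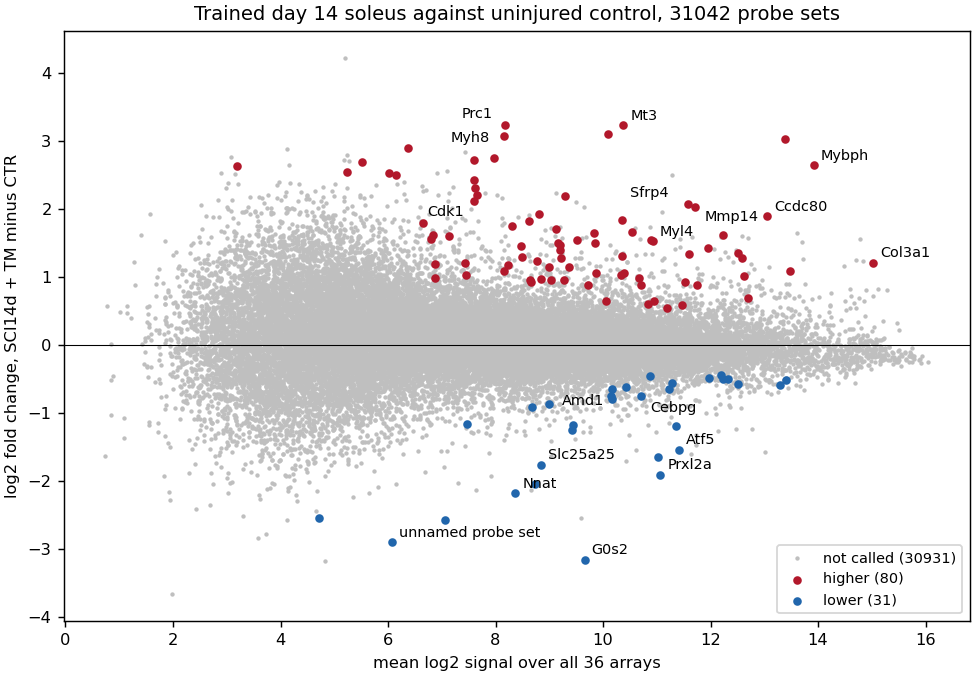
Log2 fold change of SCI14d + TM minus CTR (vertical axis) against the mean log2 signal over all 36 arrays (horizontal axis) for 31042 probe sets. Red points are the 80 probe sets called higher, blue points the 31 called lower and grey points those not called. The labelled genes include the metalloproteinase Mmp14, the division gene Prc1 and the lipolysis inhibitor G0s2.

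Among genes of the connective tissue around the fibers, 1 of 18 collagens and 3 of 27 other matrix genes were called higher than in CTR. Mmp14, a membrane-bound metalloproteinase that cleaves collagen and activates Mmp2, had signals of 1323 to 2815 (median 1521) on the CTR arrays and of 3558 to 13470 (median 5787) on the SCI14d + TM arrays. No trained array fell within the CTR range. It rose by 2.02 ± 0.29 (SE, n = 6 per group) on the log2 scale, or 4.06-fold, and its adjusted p of 0.000384 was the smallest in the comparison. A second probe set of Mmp14 rose by 2.18 ± 0.46 with an adjusted p of 0.0248. In untrained SCI14d rats Mmp14 lay between 2864 and 7008, and the log2 difference between trained and untrained rats was 0.50, with a 95% interval from -0.09 to 1.10. Mmp14 was called whichever of the 12 arrays was left out.

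Mmp2, the gelatinase that Mmp14 activates, ran from 2438 to 10374 (median 3791) in CTR and from 7351 to 15630 (median 10950) in SCI14d + TM. Its log2 fold change was 1.35 ± 0.29 (adjusted p = 0.0269), although only 3 trained arrays lay above the highest CTR array. A second, dim probe set of Mmp2 gave 0.38 with an adjusted p of 0.683. Loxl1, a lysyl oxidase that cross-links elastin, had CTR signals of 1018 to 2881 (median 1566) and trained signals of 2582 to 6769 (median 3837). It rose by 1.34 ± 0.30 on the log2 scale with an adjusted p of 0.033, and 5 of 6 trained arrays exceeded every CTR array. With 1 array left out at a time, Mmp2 was called in 6 of 12 fits and Loxl1 in 4. Both were called in untrained rats, Mmp2 at 1.14 (adjusted p = 0.0244) and Loxl1 at 1.16 (adjusted p = 0.0268).

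Col3a1, which encodes the fibrillar collagen of young and healing tissue, was among the brightest probe sets of the array. It had signals of 11285 to 37845 (median 17333) in CTR and of 26440 to 46112 (median 44676) in SCI14d + TM. Its log2 fold change was 1.20 ± 0.26, a rise of 2.30-fold, with an adjusted p of 0.027. Only the trained array with the high Gapdh ratio lay within the CTR range, and Col3a1 was called in 6 of the 12 fits that left out an array. Col3a1 was called in untrained rats as well, at 1.13 (adjusted p = 0.013).

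Of 18 collagen genes measured, 1 was called higher (Col3a1) and none lower, and 17 had a higher mean in trained rats. Their median log2 fold change was 0.99, against 0.03 over all genes. Collagens that did not pass the test included Col5a2 at 1.51 ± 0.37 (adjusted p = 0.0563) and Col5a1 at 1.60 ± 0.40 (adjusted p = 0.0602), which organise collagen fibrils. Col14a1, a fibril-associated collagen, was at 1.28 ± 0.32 (adjusted p = 0.066). For the basement membrane gene Col4a1, the probe set standing for the gene gave 0.87 (adjusted p = 0.0668) and a second one was called at 1.01 (adjusted p = 0.047). Without the arrays of high Gapdh ratio, 11 of the 18 collagens were called higher and the median was 1.39. In untrained SCI14d rats 6 of the 18 were called higher with a median of 0.86, or 7 with a median of 0.99 without those arrays.

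Among 27 other matrix proteins and remodeling enzymes, 3 were called higher (Mmp14, Mmp2 and Loxl1) and none lower. The median was 0.72 and 23 had a higher mean, and without the arrays of high Gapdh ratio 9 were called higher, with a median of 1.06. Timp2, an inhibitor of metalloproteinases that also takes part in the activation of Mmp2, was at 0.75 ± 0.20 (adjusted p = 0.0904). Lamb1, a laminin chain of the basement membrane, was at 0.88 ± 0.24 (adjusted p = 0.0943). In untrained rats 4 of the 27 were called higher, or 7 without the arrays of high Gapdh ratio.

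Several genes with the largest rises in the comparison also encode secreted or matrix proteins. Ccdc80, a secreted protein of the matrix, went from 2497 to 7748 (median 2955) in CTR to between 7561 and 18644 (median 16219) in SCI14d + TM. Its rise of 1.89 ± 0.26 on the log2 scale had an adjusted p of 0.000384, and 1 trained array overlapped the CTR range. Sfrp4, a secreted antagonist of Wnt signals, lay between 666 and 4217 (median 1720) in CTR and between 4606 and 16955 (median 6544) in SCI14d + TM. The groups did not overlap, and the log2 fold change was 2.07 ± 0.39 (adjusted p = 0.0112). Cthrc1, a secreted glycoprotein made by activated fibroblasts, was at 163 to 954 (median 222) in CTR and at 328 to 8311 (median 2757) in SCI14d + TM. It rose by 3.09 ± 0.72, and 5 of 6 trained arrays lay above the CTR range (adjusted p = 0.0418). Ccdc80 and Sfrp4 were called whichever array was left out, and Cthrc1 in 3 of 12 fits. Against CTR, untrained rats had Ccdc80 called at 1.72 (adjusted p = 0.000293) and Sfrp4 at 2.09 (adjusted p = 0.00254). Cthrc1 was called there at 2.55 (adjusted p = 0.0423).

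Other called genes of this kind were named after their values were seen. Ogn, a small leucine-rich proteoglycan, rose by 1.60 (adjusted p = 0.0387) and a second probe set by 1.42 (adjusted p = 0.0265), while the other two probe sets were not called. Smoc2, a calcium-binding matrix protein, rose by 1.27 (adjusted p = 0.0269), with 6 of 6 trained arrays above every CTR array. Its other probe sets, at 1.09 and 1.17, were not called. The metalloproteinases Mmp23 and Adamts12 rose by 1.47 (adjusted p = 0.0363) and 1.50 (adjusted p = 0.027). Another probe set of Mmp23 was called at 1.22, and the dimmest was at 0.33 (adjusted p = 0.567). Mfap2, a component of elastic microfibrils, rose by 1.29 (adjusted p = 0.0409), and Matn2, an adaptor of matrix filaments, by 1.70 (adjusted p = 0.0288). Ctsk, a cathepsin that degrades collagen, rose by 1.31 (adjusted p = 0.0406). Sulf2, an enzyme that removes sulfate from heparan chains, rose by 1.06 (adjusted p = 0.0308). Cpxm1, a carboxypeptidase-like protein, rose by 2.31 ± 0.49 (adjusted p = 0.0265).

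Markers of fibroblasts and macrophages were set beside the matrix genes. Of 12 fibroblast markers, 1 was called higher, Fap, a surface protease of activated fibroblasts. Fap ran from 290 to 1053 (median 532) in CTR and from 878 to 3998 (median 1773) in SCI14d + TM, a log2 fold change of 1.83 ± 0.42 (adjusted p = 0.0387), and it was called in 5 of 12 fits with 1 array left out. Dpt, a fibroblast matrix protein, was at 0.72 ± 0.17 (adjusted p = 0.0529). The 12 markers had a median of 0.60 and 10 had a higher mean, and without the arrays of high Gapdh ratio 4 were called. The mean of the list on single arrays, set to 0 over CTR, ran from -0.31 to 0.59 in CTR and from 0.15 to 0.80 in SCI14d + TM, so the groups overlapped. In untrained rats 2 of the 12 were called higher, with a median of 0.46, and Fap was at 1.82 (adjusted p = 0.0142). All 20 macrophage markers had a higher mean in trained rats, with a median of 0.61, and none was called, or 2 without the arrays of high Gapdh ratio. They included Cd163, a scavenger receptor of resident macrophages, at 0.84 (adjusted p = 0.257), and the list mean ran from -0.43 to 0.50 in CTR and from 0.13 to 1.09 in SCI14d + TM. Untrained rats likewise had all 20 macrophage markers higher in the mean and none called, with a median of 0.59. Their list means ran from -0.14 to 1.50. Whole muscle was measured, so more cells of a type and more RNA per cell cannot be told apart, and the part of these cells in the matrix result was not tested.

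**Figure D2:**
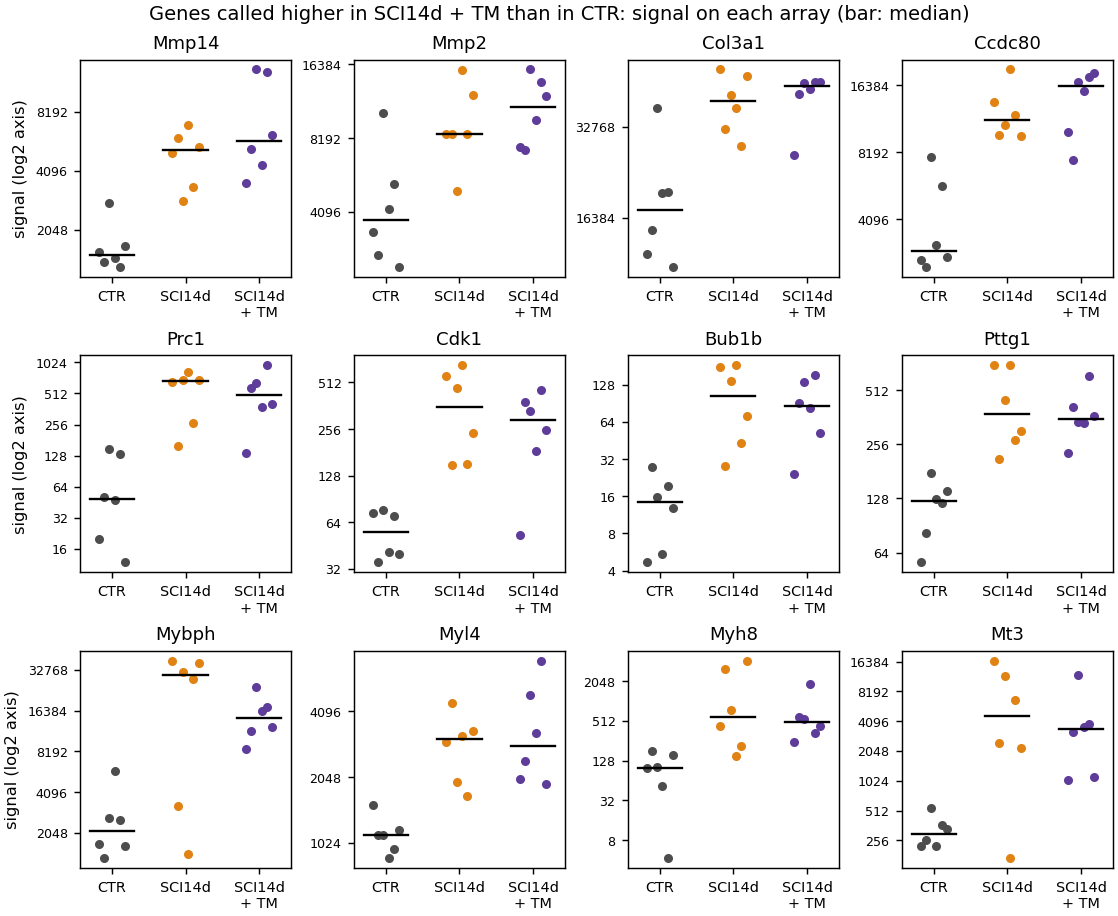
Signal on each array (vertical axis, log2 scale) for 12 genes called higher in SCI14d + TM than in CTR. Each point is 1 array, with 6 per group, and bars are medians. For Mmp14, Pttg1, Mybph, Myl4, Myh8 and Mt3 every trained array lies above every CTR array, and the untrained SCI14d arrays are shown beside them.

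Genes of cell division formed the next group. They are transcribed late in the cell cycle and are silent in mature fibers, whose nuclei no longer divide. Many of these genes carry pairs of short promoter elements, the CCAAT box, through which NF-Y activates them, and the cell cycle homology region TTTGAA, through which they are repressed outside division. The 250 bases before the RefSeq start (build GRCr8) are shown for Prc1, Cdk1 and Pttg1, which hold both elements, and for Bub1b, which holds neither, and capitals mark CCAAT and TTTGAA on either strand (ATTGG and TTCAAA on the other).
Prc1, chr1:143659231-143659480, plus strand: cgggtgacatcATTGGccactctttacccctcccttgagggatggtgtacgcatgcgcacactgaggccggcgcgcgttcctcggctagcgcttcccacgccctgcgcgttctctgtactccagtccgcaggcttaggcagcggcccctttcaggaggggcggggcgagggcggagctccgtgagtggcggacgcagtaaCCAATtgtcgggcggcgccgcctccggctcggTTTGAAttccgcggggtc
Cdk1, chr20:19265043-19265292, plus strand: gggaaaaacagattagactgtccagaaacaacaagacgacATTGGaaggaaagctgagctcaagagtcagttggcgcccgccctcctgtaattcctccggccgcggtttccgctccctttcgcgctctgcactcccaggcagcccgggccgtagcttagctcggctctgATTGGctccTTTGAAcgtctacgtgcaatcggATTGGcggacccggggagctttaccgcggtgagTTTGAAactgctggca
Pttg1, chr10:28406327-28406576, minus strand: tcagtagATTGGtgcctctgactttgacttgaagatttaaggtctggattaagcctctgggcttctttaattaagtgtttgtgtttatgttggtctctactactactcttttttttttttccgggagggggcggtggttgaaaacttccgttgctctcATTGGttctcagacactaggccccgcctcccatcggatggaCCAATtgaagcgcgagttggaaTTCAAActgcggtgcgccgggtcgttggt
Bub1b, chr3:126016817-126017066, plus strand: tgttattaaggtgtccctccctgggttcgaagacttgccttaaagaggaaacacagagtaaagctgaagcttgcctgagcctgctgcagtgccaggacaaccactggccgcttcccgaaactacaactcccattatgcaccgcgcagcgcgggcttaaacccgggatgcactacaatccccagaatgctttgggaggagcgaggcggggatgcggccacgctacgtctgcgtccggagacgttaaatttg
Of the 6 called division genes with such a window (these 4, Kif15 and Cenpi), 3 held CCAAT and 5 held TTTGAA. Of 33465 rat windows of the same length, 34.0% held CCAAT and 16.2% held TTTGAA. The letters are a description of the sequence and not evidence of binding.

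Prc1, which bundles the microtubules of the dividing spindle, had CTR signals of 11.8 to 149 (median 48.8) and trained signals of 136 to 966 (median 490). It had the largest rise among called genes above the 40th percentile of mean signal, 3.23 ± 0.54 on the log2 scale with an adjusted p of 0.00453, and 5 of 6 trained arrays lay above the CTR range. The CTR signals were dim, and adding an offset of 32 to every signal lowered the log2 fold change to 2.46. Cdk1, the kinase that drives entry into mitosis, lay at 35.1 to 76.5 (median 55.2) in CTR and at 52.7 to 456 (median 293) in SCI14d + TM. Its log2 fold change was 2.11 ± 0.48 (adjusted p = 0.0363), and the 1 trained array within the CTR range was replicate 1, the array with the high Gapdh ratio. Bub1b, a spindle checkpoint kinase, was at 4.67 to 27.5 (median 14.3) in CTR and at 24.4 to 154 (median 86.5) in trained rats, a rise of 2.69 ± 0.57 (adjusted p = 0.0265) that was 1.31 with the offset. When single arrays were left out, Prc1 was called in 12 of 12 fits, Bub1b in 7 and Cdk1 in 3. Untrained rats had Prc1 called at 3.32 (adjusted p = 0.000716), Cdk1 at 2.57 (adjusted p = 0.00254) and Bub1b at 2.85 (adjusted p = 0.00501).

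These 3 were the called members of a list of 34 cell cycle genes, of which 31 had a higher mean in trained rats and none was called lower. The median of the list was 0.89, and 8 were called higher, with a median of 1.09, without the arrays of high Gapdh ratio. In untrained SCI14d rats 10 of the 34 were called higher with a median of 1.14, or 7 with a median of 0.90 without those arrays. Cenpf, a kinetochore protein, was at 1.66 ± 0.44 (adjusted p = 0.0825), and Ube2c, which tags mitotic proteins for destruction, was at 1.38 ± 0.38 (adjusted p = 0.0951). Further division genes were outside the list and named after their values were seen. Pttg1, the securin that delays the separation of sister chromatids, rose from 56.5 to 177 (median 124) to between 230 and 616 (median 356). Its log2 fold change was 1.74 ± 0.37 (adjusted p = 0.0251). The spindle motor gene Kif15 rose by 2.90 (adjusted p = 0.0348) and the centromere gene Cenpi by 1.60 (adjusted p = 0.0499). Both were dim, and Cenpi was not called without the arrays of high Gapdh ratio.

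Some fiber proteins of immature muscle were also called higher. Mybph, a myosin-binding protein of developing and fast fibers, ran from 1336 to 5835 (median 2115) in CTR and from 8542 to 24421 (median 14334) in SCI14d + TM. The groups did not overlap, and the log2 fold change was 2.64 ± 0.57, or 6.23-fold, with an adjusted p of 0.027. In untrained SCI14d rats it lay between 1419 and 38405, a wider spread that took in the CTR range. Myl4, the embryonic and atrial myosin light chain, had CTR signals of 871 to 1525 (median 1109) and trained signals of 1898 to 7015 (median 2839), again without overlap. It rose by 1.52 ± 0.33, or 2.87-fold, with an adjusted p of 0.0284. Myh8, the perinatal myosin heavy chain, was at 4.31 to 180 (median 100.2) in CTR and at 245 to 1889 (median 490) in trained rats. The log2 fold change was 3.06 ± 0.72 (adjusted p = 0.0459), and it was 2.32 with the offset of 32, where 1 CTR array was far dimmer than the others. Mybph was called in 7, Myl4 in 6 and Myh8 in 2 of the 12 fits that left out an array.

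The 3 were the called members of 11 embryonic and regenerating fiber genes, 10 of which had a higher mean, with a median of 0.71. The same 3 of the 11 were called higher in untrained rats, where the median was 0.49. There Mybph was at 2.55 (adjusted p = 0.0106), Myl4 at 1.32 (adjusted p = 0.0222) and Myh8 at 3.50 (adjusted p = 0.00602). Myh3, the embryonic myosin heavy chain, was at 0.71 ± 0.41 (adjusted p = 0.502) and Tnnt2, the cardiac and embryonic troponin T, at 1.40 ± 0.72 (adjusted p = 0.441). Of 11 myogenic factors and satellite cell genes none was called, or 1 (higher) without the arrays of high Gapdh ratio. Mymk, which encodes the protein that fuses myoblasts, was at 2.08 ± 0.54 (adjusted p = 0.0722), Myf6 at 0.49 ± 0.16 (adjusted p = 0.177) and Myog at 0.11 ± 0.29 (adjusted p = 0.918). Among 16 genes of the neuromuscular junction and of denervation none was called in trained rats, and Chrne, the adult subunit of the acetylcholine receptor, was at 1.73 ± 0.53 (adjusted p = 0.152). In untrained rats 2 of these 16 were called higher.

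The lists of fast and of slow fiber genes held no call in either direction in trained rats. Mybph, which was called higher and is also a protein of fast fibers, was listed with the immature fiber genes. The 16 fast genes had a median of 0.71, with 12 higher in the mean. After quantile normalization 1 of them was called higher, as was 1 with Gapdh scaling. Actn3, the fast fiber actinin, was at 2.50 ± 0.89 (adjusted p = 0.225) and Tnnt3, fast troponin T, at 1.55 ± 0.44 (adjusted p = 0.107). Myh1, the fast 2X myosin heavy chain, lay the other way, from 8274 to 18313 (median 9774) in CTR and from 2998 to 8483 (median 4103) in SCI14d + TM. Its log2 difference was -1.24 ± 0.34 and the adjusted p was 0.0975. Its 5 probe sets disagreed, since 1 lay at 1.04 (adjusted p = 0.254) and the others between -0.88 and -1.33, and none was called. Myh4, the fastest myosin, varied so widely that its fold change had no firm sign, with signals from 36.5 to 7924 (median 105) in CTR, from 53.3 to 1297 (median 189) in SCI14d + TM and from 68 to 8553 (median 3272) in SCI14d. The log2 difference from CTR was 0.15 ± 1.12 (adjusted p = 0.975). The 13 slow genes had a median of -0.22, and 1 was called lower without the arrays of high Gapdh ratio. Pln, a brake on the slow calcium pump, was at -0.97 ± 0.28 (adjusted p = 0.118), and Myl2, a slow myosin light chain, at -0.28 ± 0.22 (adjusted p = 0.649).

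Mt3, a metal-binding metallothionein, had a rise as large as that of Prc1. Its CTR signals were 226 to 547 (median 298) and its trained signals 1038 to 11906 (median 3377), with no overlap, and the log2 fold change was 3.23 ± 0.74 (adjusted p = 0.0363), a call made in 3 of 12 fits with 1 array left out. In untrained rats 1 array lay at 170 and the highest at 16766, and Mt3 was called at 3.39 (adjusted p = 0.00901). Further called genes, most of them named after their values were seen, had other roles. Mdk, a heparin-binding growth factor of repair, rose by 1.08 ± 0.19 (adjusted p = 0.00453) and P2rx4, an ATP-gated channel, by 1.14 ± 0.21 (adjusted p = 0.0102). Sox4, a transcription factor of immature cells, rose by 1.03 (adjusted p = 0.0239), and a second of its 7 probe sets was also called. Apoe, a lipid carrier that macrophages make in quantity, rose by 1.08 (adjusted p = 0.0153). Cdkn1c, an inhibitor of cyclin-dependent kinases, rose by 1.49 (adjusted p = 0.042) and Plagl1, a zinc finger factor that restrains growth, by 1.54 (adjusted p = 0.027). Ptprv, a tyrosine phosphatase, rose by 2.20 (adjusted p = 0.0147), and Fam167a by 1.82 (adjusted p = 0.0306). The sequences LOC102553868 and 6330403K07Rikl rose by 2.74 (adjusted p = 0.0137) and 1.92 (adjusted p = 0.033). Scn3b, an auxiliary subunit of sodium channels, rose by 1.63 (adjusted p = 0.039), with 6 of 6 trained arrays above the CTR range.

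More of the called genes, also named after their values were seen, covered many functions. Cep128, a protein of the centriole, rose by 1.39 (adjusted p = 0.00988) and Farp1, an exchange factor for small GTPases, by 0.96 on 1 of its probe sets (adjusted p = 0.0102). On both, every trained array lay above every CTR array and the call was made whichever array was left out. Tpst1, which adds sulfate to tyrosines of secreted proteins, rose by 0.95 (adjusted p = 0.013), and Ctsh, a lysosomal cathepsin, by 0.68 (adjusted p = 0.0356). Phlda3, a target of p53, rose by 0.92 (adjusted p = 0.0443), with 6 of 6 trained arrays above the CTR range. Atox1, a copper chaperone, rose by 0.64 (adjusted p = 0.0443), and Agpat5, an enzyme of phospholipid synthesis, by 0.63 (adjusted p = 0.0309). For Vldlr, a lipoprotein receptor, 1 probe set was called at 0.88 (adjusted p = 0.0147) and the one standing for the gene was at 0.51 (adjusted p = 0.29). Several calls were on dim signals. Tas2r123, a taste receptor gene, was at 2.27 to 7.94 in CTR and at 13.2 to 53.2 in SCI14d + TM, and its log2 rise of 2.63 (adjusted p = 0.0306) was 0.72 with the offset of 32. Shroom1, an actin-binding protein, was at 34.2 to 61.1 in CTR and at 1.38 to 35.3 in trained rats, and its log2 fold change of -2.56 (adjusted p = 0.0309) was -0.86 with the offset. The other Shroom1 probe sets, at -0.69 and -0.30, were dimmer and were not called. Of the 111 called probe sets, 27 had no single gene symbol and, apart from 1 described further on, are counted only. Some called genes with a symbol are likewise counted and not described.

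Fewer genes were called lower than CTR. Slc25a25, a mitochondrial carrier that exchanges ATP for phosphate in response to calcium, had CTR signals of 675 to 1580 (median 1073) and trained signals of 169 to 572 (median 327). No array overlapped. It fell by 1.77 ± 0.25 on the log2 scale, a 3.40-fold lower signal, with an adjusted p of 0.000384. In untrained SCI14d rats it lay between 324 and 725, and SCI14d + TM minus SCI14d was -0.61, with a 95% interval from -1.12 to -0.09 and an adjusted p of 0.78. A transcription factor of the mitochondrial stress response, Atf5, lay between 5004 and 7573 (median 5472) in CTR and between 1538 and 2865 (median 1848) in trained rats. It fell by 1.55 ± 0.26 with an adjusted p of 0.00453. Cebpg, a partner of the ATF factors, went from 1901 to 2448 (median 2160) in CTR to between 1050 and 1506 (median 1298). Its log2 fold change was -0.76 ± 0.13 (adjusted p = 0.00453), also with no overlap, and a second probe set was at -0.66 (adjusted p = 0.0784). All 3 genes were called whichever array was left out. Untrained rats also had all 3 called lower than CTR. Slc25a25 was at -1.16 (adjusted p = 0.00901), Atf5 at -1.50 (adjusted p = 0.00156) and Cebpg at -0.55 (adjusted p = 0.0154).

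Of 20 genes of the ATF4, p53 and p21 stress response, none was called and the median was -0.08, with 1 called lower without the arrays of high Gapdh ratio. Ddit3, a factor induced by unfolded proteins, was at -0.94 ± 0.25 (adjusted p = 0.0744) and Atf4 at -0.44 ± 0.16 (adjusted p = 0.247). The list did not hold Atf5 or Cebpg, which the rule on the largest falls brought in.

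G0s2, an inhibitor of the triglyceride lipase of lipid droplets, had the largest fall among named genes. Its signals were 2921 to 9730 (median 6115) in CTR and 364 to 1220 (median 560) in SCI14d + TM, with no overlap. The log2 fold change was -3.16 ± 0.65, an 8.96-fold lower signal, with an adjusted p of 0.0211. Nnat, a small membrane protein linked to calcium handling, ran from 504 to 1703 (median 1416) in CTR and from 181 to 480 (median 225) in trained rats. It fell by 2.19 ± 0.41 with an adjusted p of 0.0102. Prxl2a, a peroxiredoxin-like antioxidant protein, was at 6937 to 11694 (median 9043) in CTR and at 900 to 7041 (median 2671) in SCI14d + TM, and 1 trained array reached the CTR range. Its log2 fold change was -1.91 ± 0.37 (adjusted p = 0.0127). Leaving out single arrays kept the call in 12 of 12 fits for Nnat, 10 for Prxl2a and 8 for G0s2. G0s2 was called lower in untrained rats too, at -2.52 (adjusted p = 0.0273). So were Nnat at -2.09 (adjusted p = 0.00364) and Prxl2a at -2.39 (adjusted p = 0.000337).

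Amd1, which makes the aminopropyl donor for spermidine and spermine, was the called member of 12 polyamine genes. Its CTR signals were 1089 to 1587 (median 1403) and its trained signals 665 to 1097 (median 949), a log2 fold change of -0.65 ± 0.14 (adjusted p = 0.0239) that was called in 7 of 12 fits with 1 array left out. Odc1, the first enzyme of the pathway, was at -0.54 ± 0.21 (adjusted p = 0.289). Gnl3l, a nucleolar GTP-binding protein, fell from 3000 to 4086 (median 3274) to between 1979 and 2449 (median 2326), by 0.57 ± 0.11 on the log2 scale (adjusted p = 0.0102). The remaining falls were small, from -0.80 for Spg7, a protease of the inner mitochondrial membrane, to -0.45 for Tspyl1. Between them lay the mitochondrial ribosome protein Mrpl54 at -0.60, the RNA polymerase subunit Polr2l at -0.59, the DNA polymerase subunit Pole4 at -0.51 and the folding factor Pfdn2 at -0.50, with adjusted p-values from 0.027 to 0.0499. Dimmer probe sets of Spg7 (-0.43) and Pfdn2 (-0.35) were not called.

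Some falls rested on 1 of several probe sets. For Acat1, the mitochondrial thiolase of ketone and isoleucine breakdown, the probe set standing for the gene was at -0.67 (adjusted p = 0.0728), and a dimmer one was called at -1.65 (adjusted p = 0.00873). For Kcnj11, the pore of the ATP-sensitive potassium channel, 1 of 3 probe sets was called, at -1.19 (adjusted p = 0.013), and the one standing for the gene was at -0.91 (adjusted p = 0.0558). For Ppp3cb, a catalytic subunit of calcineurin, 1 of 3 was called at -1.18 (adjusted p = 0.000731), and the brightest was at -0.11 (adjusted p = 0.82). For Angel2 1 of 3 was called, at -0.91 (adjusted p = 0.0112), and the brightest was at -0.38 (adjusted p = 0.383).

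**Figure D3:**
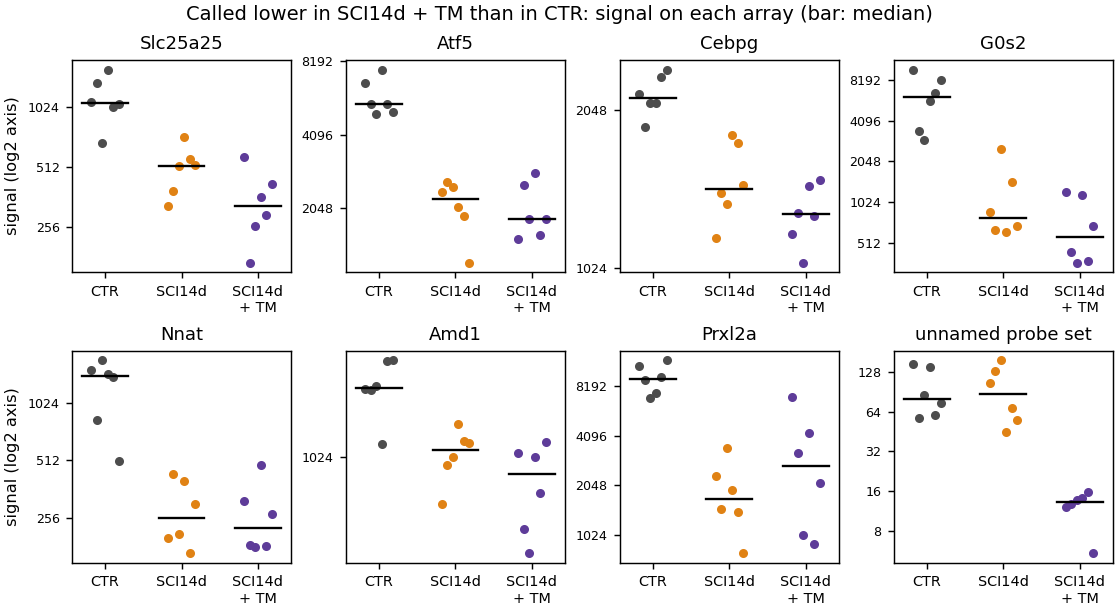
Signal on each array (vertical axis, log2 scale) for 7 genes and 1 unnamed probe set called lower in SCI14d + TM than in CTR. Each point is 1 array, with 6 per group, and bars are medians. For Slc25a25, Atf5, Cebpg, G0s2, Nnat and the unnamed probe set no trained array overlaps CTR, while 1 array of Amd1 and 1 of Prxl2a do.

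A probe set that has no gene symbol here was the single call in the test of trained against untrained rats. Its signals were 57.6 to 147 in CTR, 44.5 to 156 in SCI14d and 5.4 to 15.8 in SCI14d + TM. The trained arrays lay below every array of the other two groups. The log2 fold change was -2.91 ± 0.42 against CTR (adjusted p = 0.000384) and -2.85 against SCI14d (adjusted p = 0.00225). All of these signals were at or below the median of an array, and adding an offset of 32 brought the change against CTR to -1.45.

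Genes of oxidative and fat metabolism were lower in the mean but almost none was called. All 20 genes of mitochondrial fatty acid oxidation had a lower mean in trained rats, with a median log2 fold change of -0.40, and none was called. The median was -0.39 after quantile normalization, -0.47 after median centring and -0.22 with Gapdh scaling. Hadhb, a subunit of the trifunctional enzyme, was at -0.48 ± 0.15 (adjusted p = 0.162), and Acadvl, the first enzyme for long chains, at -0.54 ± 0.21 (adjusted p = 0.284). The list mean on single arrays ran from -0.29 to 0.25 in CTR and from -1.05 to 0.03 in SCI14d + TM, so the groups overlapped. In untrained rats 9 of the 20 were called lower, or 3 without the arrays of high Gapdh ratio, and the median was -0.76. Without those arrays the medians were -0.57 in trained and -0.70 in untrained rats.

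Of 16 genes of fatty acid uptake and storage, 1 was called lower, G0s2, and the median was -0.32. Lpl, the lipase that frees fatty acids from blood lipids, had signals of 27268 to 33136 (median 31119) in CTR, 18639 to 35534 (median 25469) in SCI14d + TM and 7509 to 20382 (median 12900) in SCI14d. The trained and CTR arrays overlapped, and their log2 difference was -0.24 with a 95% interval from -0.76 to 0.29 (adjusted p = 0.768). SCI14d + TM minus SCI14d was 0.98, from 0.46 to 1.51, with an adjusted p of 0.324. Fabp3, the fatty acid carrier of the muscle cytoplasm, lay at 39106 to 57792 (median 44424) in CTR, 28746 to 41461 (median 32670) in trained and 6837 to 34332 (median 16429) in untrained rats. It differed from CTR by -0.42, with an interval from -1.18 to 0.33 (adjusted p = 0.693).

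The 4 genes of ketone body use all had a lower mean, with a median of -0.64, and none was called (1 without the arrays of high Gapdh ratio), beside 4 called lower in untrained rats. Bdh1, which interconverts the main ketone bodies, was at 825 to 2043 (median 1440) in CTR, at 332 to 1352 (median 590) in SCI14d + TM and at 72.1 to 616 (median 182) in SCI14d. Its log2 difference from CTR was -1.27 ± 0.42 (adjusted p = 0.187), and the trained arrays overlapped the CTR range. Oxct1, which activates acetoacetate, was at -0.53 ± 0.28 (adjusted p = 0.46) and Slc16a1, the monocarboxylate transporter, at -0.60 ± 0.16 (adjusted p = 0.0784). For Slc16a1 6 of 6 trained arrays lay below the CTR range.

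In the respiratory chain the medians of trained rats were nearer to 0 than those of untrained rats against the same CTR arrays, and the difference of these medians was not tested. Complex I had a median of -0.23 over 34 genes with none called, beside -0.46 with 14 called lower in untrained rats. Complexes III and IV had -0.21 over 21 genes, beside -0.42 with 7 called lower, and ATP synthase -0.19 over 14 genes, beside -0.38 with 4 called lower. The citrate cycle had -0.26 over 17 genes, beside -0.45 with 5 called lower. These trained medians depended on the scaling. With Gapdh scaling they were -0.06 for complex I, -0.04 for complexes III and IV, -0.01 for ATP synthase and -0.09 for the citrate cycle. With median centring they were -0.31, -0.29, -0.27 and -0.34, in the same order. Without the arrays of high Gapdh ratio, 2 citrate cycle genes and 1 of complexes III and IV were called lower in trained rats. The untrained counts were then 4 for complex I, 1 for complexes III and IV, 0 for ATP synthase and 4 for the citrate cycle, a fit added after the data were seen. Without those arrays the trained and untrained medians lay nearer to each other. They were -0.27 and -0.40 for complex I and -0.24 and -0.35 for complexes III and IV. For ATP synthase they were -0.25 and -0.31, and for the citrate cycle -0.30 and -0.40. SCI14d replicate 4, 1 of the arrays left out, was the lowest of its group in complex I (list mean -0.92) and in ATP synthase (-0.88). Members nearest to the threshold were Suclg1, a succinate ligase subunit, at -0.55 ± 0.14 (adjusted p = 0.0744) and Cox17, a copper chaperone of cytochrome oxidase, at -0.38 ± 0.11 (adjusted p = 0.122). Perm1, a muscle regulator of mitochondrial genes, was at -0.82 ± 0.41 (adjusted p = 0.426) and Esrra, the nuclear receptor it works with, at -0.60 ± 0.19 (adjusted p = 0.154). Adipocyte markers moved the same way, with 13 of 15 lower in the mean, a median of -0.41 and none called. Their list means ran from -0.73 to 0.89 in CTR and from -1.23 to 0.58 in SCI14d + TM, and their part in the lipid lists was not tested.

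**Figure D4:**
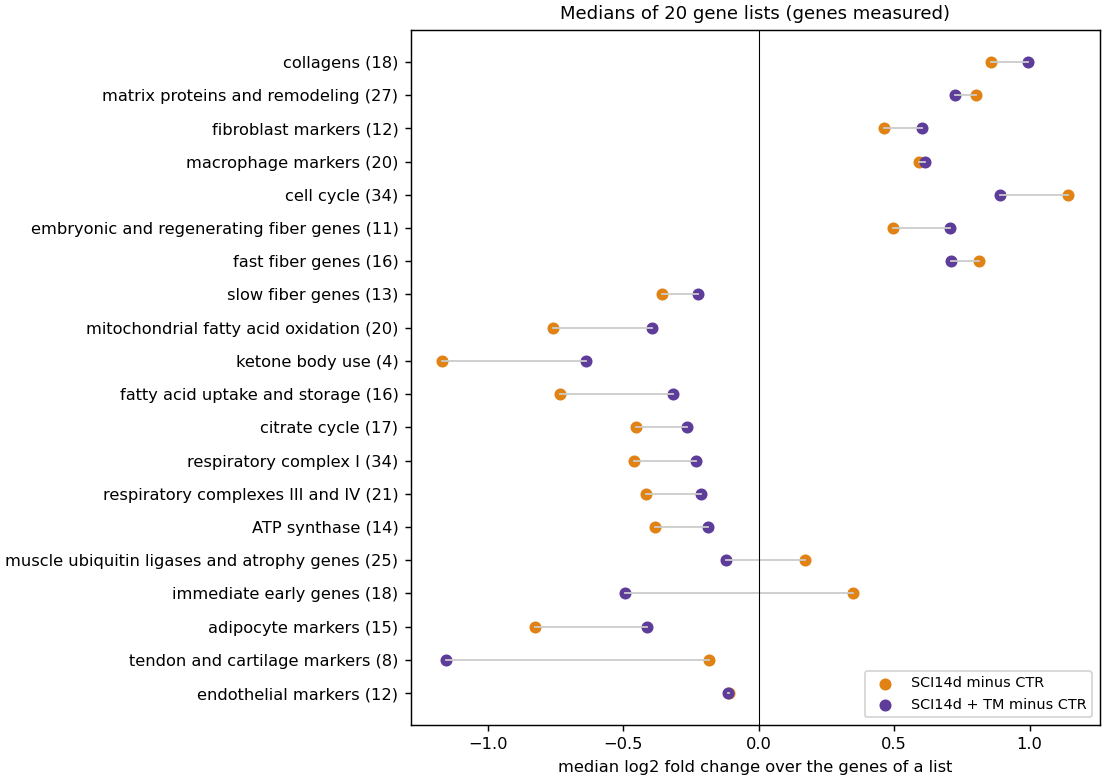
Median log2 fold change (horizontal axis) over the genes of 20 lists, with the number of genes measured in brackets. Purple points are SCI14d + TM minus CTR and orange points SCI14d minus CTR, and both use the same CTR arrays. Collagens (0.99), cell cycle (0.89) and matrix proteins (0.72) lie to the right in trained rats, and fatty acid oxidation (-0.40) and ketone body use (-0.64) to the left.

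Genes of muscle breakdown and growth did not pass the test in trained rats. Of 25 ubiquitin ligases and atrophy genes none was called and the median was -0.12, which became 0.05 with Gapdh scaling, and 1 was called higher without the arrays of high Gapdh ratio. Trim63, the ligase that marks myofibril proteins for degradation, was at 3854 to 5638 (median 5236) in CTR, 3630 to 4922 (median 3894) in SCI14d + TM and 5274 to 9383 (median 7435) in SCI14d. The log2 difference between trained and untrained rats was -0.80, with an interval from -1.17 to -0.43. It was not called (adjusted p = 0.232). Of 33 genes of TGF-beta, activin and BMP signaling none was called, or 1 (higher) without those arrays. Fst, the secreted inhibitor of myostatin and activin, was at 0.07 ± 0.24 (adjusted p = 0.948) and Smad3, a transducer of their signals, at -0.35 ± 0.17 (adjusted p = 0.403). Bmpr2, a BMP receptor, was at 0.23 ± 0.25 (adjusted p = 0.76), and the signal transducers Smad1, Smad4, Smad5 and Smad6 lay between -0.10 and 0.25.

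Of 23 genes of IGF and insulin signaling none was called, or 2 higher and 2 lower without the arrays of high Gapdh ratio. Irs2, an adaptor of the insulin receptor, was nearest to the threshold at -1.10 ± 0.27 (adjusted p = 0.0594), and Igf1, the growth factor, was at 1.03 ± 0.30 (adjusted p = 0.122). Igfbp5, an IGF-binding protein, was at -0.08 ± 0.35 (adjusted p = 0.959). The 18 immediate early genes, which are induced within minutes of activity or handling, had a median of -0.49 with none called. Fos was at -1.48 ± 0.89 (adjusted p = 0.523) and Jun at -0.37 ± 0.30 (adjusted p = 0.663). The proteasome (31 genes, median 0.03), cytosolic ribosome (25 genes, median -0.04) and translation factor (25 genes, median 0.01) lists had no call and medians close to that of all genes.

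Other tissues that can enter a soleus sample were followed by their markers. Tendon and cartilage markers had a median of -1.16 over 8 genes with none called, and their list means ran from -1.80 to 1.02 in CTR and from -1.86 to -0.46 in SCI14d + TM. Comp and Chad, which mark tendon and cartilage, were at -1.71 (adjusted p = 0.229) and -2.55 (adjusted p = 0.249). The part of these tissues in the matrix result was not tested. Blood and erythrocyte markers had a median of 1.08 over 5 genes with none called (1 higher without the arrays of high Gapdh ratio), with Ahsp, a hemoglobin chaperone, at 2.23 (adjusted p = 0.0744). Endothelial markers had a median of -0.11 over 12 genes, with none called.

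**Figure D5:**
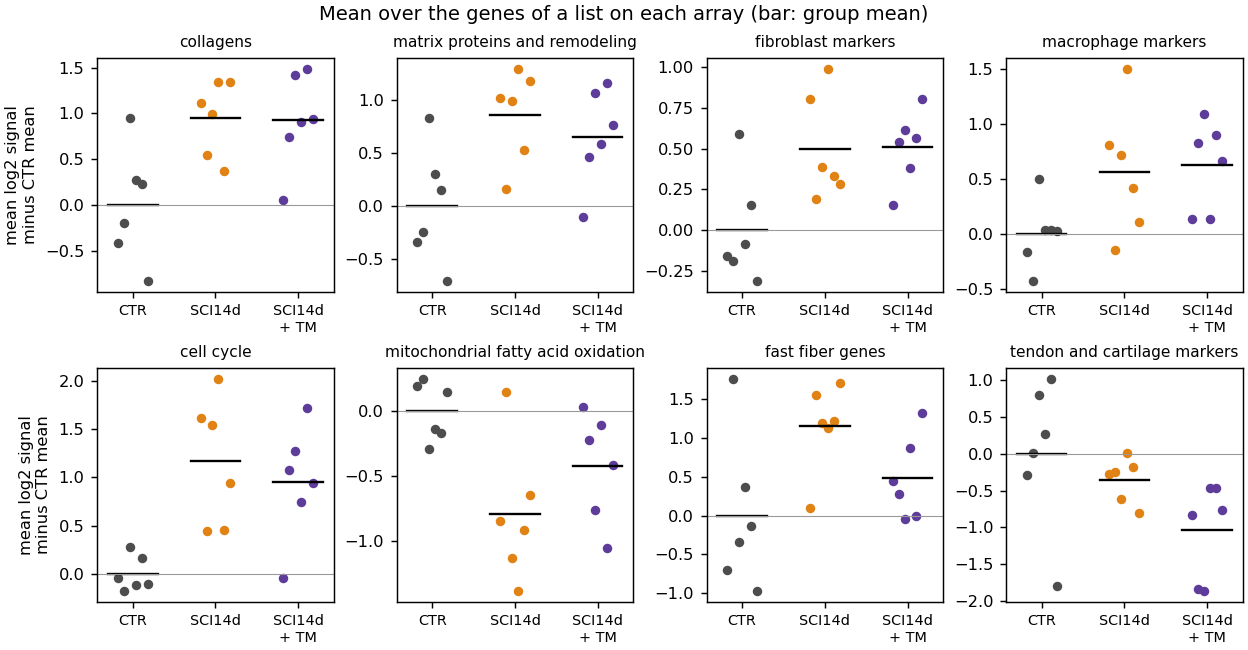
Mean log2 signal over the genes of a list on each array, minus the CTR mean (vertical axis), for 8 lists and the CTR, SCI14d and SCI14d + TM groups of 6 arrays. Bars are group means. The highest CTR array in collagens (0.95) lies inside the trained range of 0.05 to 1.49, and the groups also overlap for fatty acid oxidation.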

How the data were processed

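RNA of whole left soleus, 1 array per rat, was measured on Affymetrix Rat Genome 230 2.0 arrays. The intensity values were deposited as linear MAS5 signals, which the authors had scaled by 1 factor per array, and the trimmed mean without the lowest and highest 2% was 800.3 on every array. Detection calls, muscle weights and RT-qPCR were not analysed here, and the table held 0 other columns of values per sample. After 57 control probe sets were left out, log2 signals of 31042 probe sets were fitted over all 36 arrays in 6 groups with limma 3.58.1 in R 4.3.3 (lmFit, eBayes with an intensity trend, Benjamini-Hochberg adjustment). Groups came from the sample labels, and numbers of replicates did not pair arrays. Each gene was represented by its probe set with the highest mean signal. Dimmer probe sets of the called genes Sfrp4, Apoe, Scn3b, Tpst1 and Agpat5 were not called. Named genes were the 15 highest and 15 lowest called fold changes above the 40th percentile of mean signal (14 qualified as lower), up to 5 genes of smallest p in each of 46 lists, and genes the study discusses; others are stated as chosen later. The members and lists were chosen with earlier results of these data known. Scripts were tested on simulated data. Promoter sequences came from RefSeq. The number of arrays limits the precision. Each p-value of the main fit sets a difference against the spread between rats of a group, estimated over all 36 arrays and moderated by limma. Alternatives covered scaling (for Gapdh, by a probe set shared with a near-identical copy), offset, dim probe sets, the variance model, the groups fitted, probe set choice, RNA quality, the methods' t-test and leaving out each array.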

Additional observations from a re-analysis of the deposited data

Results flagged for a closer look

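Of 84 sets of 6 values examined, 10 held 1 array far from the others, with a gap to the nearest array of over 0.625 of the whole range, a limit that chance passes in about 1 of 20 sets. The Gapdh 3′ to 5′ ratio of CTR replicate 3 (1.61 against 1.16 for the next array, gap 0.838 of the range) and of SCI14d + TM replicate 1 (1.33 against 1.11, gap 0.741) were among them. The same arrays were extreme for Mmp14 in CTR (replicate 3 at 2815, next 1686, gap 0.679) and for Col3a1 in SCI14d + TM (replicate 1 at 26440, next 42048, gap 0.834). The others were the CTR arrays with the lowest Myh8 (4.31, next 52.3, gap 0.669), the lowest Amd1 (1089, next 1390, gap 0.647), the highest Gnl3l (4086, next 3351, gap 0.642) and the highest Myh4 (7924, next 189, gap 0.694). In SCI14d + TM they were the lowest signal of the unnamed probe set (5.4, next 12.0, gap 0.742) and the lowest mean of the blood markers (-0.21, next 1.01, gap 0.675).

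Trained and untrained rats differed in the unnamed probe set by -2.85 on the log2 scale, with an adjusted p of 0.00225 from limma.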

How the results depend on the processing

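The number of calls was unstable. Against 111 calls (80 higher, 31 lower), leaving out 1 array gave between 20 and 242 calls, 9 to 171 higher and 11 to 71 lower. Counts moved by over 1.5 times without CTR replicate 1 (33), 2 (41), 3 (234), 4 (70) or 6 (30) and without SCI14d + TM replicate 1 (242), 3 (20), 5 (21) or 6 (56). In all 12 such fits 18 probe sets stayed called, 8 higher and 10 lower, among them Mmp14, Ccdc80, Sfrp4, Prc1, Mdk, P2rx4, Slc25a25, Atf5, Cebpg, Nnat and Gnl3l, while 55 were called in fewer than 6 fits. Cthrc1, Cdk1 and Mt3 were called in 3 of them and Myh8 in 2. Dropping the dimmest 40% of probe sets gave 175 calls (116 higher, 59 lower), a fit without intensity trend 62 (42 and 20), array weights 697 (439 and 258), the 2 groups alone 167 (102 and 65) and leaving out the arrays of high Gapdh ratio 480 (339 and 141). Median centring gave 63 lower calls and Gapdh scaling 12, beside 63 and 115 higher. The offset gave 42 lower calls and the Gapdh ratio as a covariate 43. The methods' t-test gave 4532 probe sets unadjusted (2544 higher, 1988 lower) and 40 after adjustment (17 and 23). The cause of these moves was not tested. The replicate block gave 176 calls (111 and 65), but replicate numbers did not pair the arrays, since same-numbered arrays correlated between -0.0128 and 0.18 and 1 of 6 was best matched to its own number.

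The genes that were not called and changed sign were Myh4, Fst and Igfbp5. Myh4 was at -0.054 with array weights, -0.050 with the Gapdh ratio as a covariate and -0.64 without the arrays of high ratio, and between -0.36 and 1.22 without single arrays. Fst was at -0.014 after median centring and -0.043 as the mean of its probe sets, with -0.070 to 0.23 without single arrays. Igfbp5 was at 0.10 with Gapdh scaling, 0.068 with the covariate and 0.22 as the mean of its probe sets, with -0.24 to 0.092 without single arrays. The named genes that were called kept their direction in every alternative, but many lost their call. Of the 111, 62 were called with the 2 groups alone, 62 with the 3 groups alone, 60 without intensity trend, 87 with Gapdh scaling and 15 by the adjusted methods' t-test. By that test the adjusted p was 0.084 for Mmp14, 0.086 for Ccdc80, 0.069 for Slc25a25 and 0.112 for Prc1. With Gapdh scaling it was 0.178 for Cebpg and 0.361 for Gnl3l.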
